A study of Mus musculus with 43 samples.

Results

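The nuclear genes of oxidative phosphorylation were taken as the genes whose symbol begins with Nduf, Atp5, Cox4 to Cox8 or Uqcr, without the symbols that hold -ps, and with at least 10 counts summed over all libraries. Of 54532 genes in the deposited table, 103 symbols matched, 9 of them held -ps and 3 others stayed under 10 counts, which left 91 genes. They comprised 40 genes of complex I, 8 of its assembly factors, 8 genes of complex III, 18 of complex IV and 17 of ATP synthase, as their symbols assign them. The annotation gives 88 of them as protein coding and 3 as processed pseudogenes, Ndufs6b and Ndufb4c under complex I and Cox6c2 under complex IV, which the rule kept because their symbols hold no -ps. Ndufa4, now counted as a subunit of complex IV, and its relative Ndufa4l2 were kept under complex I by symbol. Members were described across strains, brain regions and title tags.

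EC sorted as CD45-, CD11b-, CD31+ cells from brains of 2-month-old mice were sequenced in 43 libraries, 27 from male and 16 from female mice. The mice belonged to 5 long-inbred strains (C57BL/6J, DBA/2J, A/J, NOD/ShiLtJ and 129S1/SvImJ, 31 libraries) and 2 recently wild-derived strains (CAST/EiJ and WSB/EiJ, 12 libraries), with no allele or treatment named for any group. Cortex gave 21 libraries and hippocampus 22, and every title carries the word high or low, which the sources used here do not define. Each male strain had 1 library of each region and tag, except 129S1/SvImJ, which had no cortex library titled low. The labels do not name the mouse behind a library, so p-values measure only the spread between libraries, which may be partly technical.

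Oxidative phosphorylation passes electrons from NADH through complexes I, III and IV of the inner mitochondrial membrane to oxygen, and ATP synthase uses the proton gradient this builds to make ATP. Each of these complexes mixes subunits encoded in the nucleus with subunits encoded in mitochondrial DNA, and assembly factors join them without staying in the finished enzyme. Brain EC hold mitochondria and also rely on glycolysis. The nuclear respiratory factors NRF1 and GABP, the latter a member of the ETS family, together with YY1, are known to act on promoters of many of these genes.

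Promoters of 5 members are shown because these genes are among the 8 with the smallest p in the test among strains, and because they differ in whether they hold the letters that those factors are known to bind. The sequences are the 250 bases before the RefSeq start in GRCm38.p6, 5′ to 3′ on the gene's strand. Capitals mark the letters searched, on either strand: GCATGCGC for NRF1, CCGGAAG for ETS factors and AAGATGGC for YY1. The NRF1 letters overlap their own reverse complement, so a match on both strands gives 1 longer run of capitals. Each line gives the gene, the region and the strand.
Ndufb11, chrX:20617620-20617869, minus strand: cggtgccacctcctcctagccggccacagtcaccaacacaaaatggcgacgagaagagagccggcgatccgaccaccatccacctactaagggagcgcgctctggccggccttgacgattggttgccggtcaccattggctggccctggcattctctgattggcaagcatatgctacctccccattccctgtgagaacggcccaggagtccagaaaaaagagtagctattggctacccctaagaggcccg
Ndufa13, chr8:69902021-69902270, minus strand: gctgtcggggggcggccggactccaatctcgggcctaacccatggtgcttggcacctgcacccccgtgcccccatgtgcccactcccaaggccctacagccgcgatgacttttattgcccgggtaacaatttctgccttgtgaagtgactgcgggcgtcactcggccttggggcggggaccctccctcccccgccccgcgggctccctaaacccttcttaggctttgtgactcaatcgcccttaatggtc
Uqcrc1, chr9:108936398-108936647, plus strand: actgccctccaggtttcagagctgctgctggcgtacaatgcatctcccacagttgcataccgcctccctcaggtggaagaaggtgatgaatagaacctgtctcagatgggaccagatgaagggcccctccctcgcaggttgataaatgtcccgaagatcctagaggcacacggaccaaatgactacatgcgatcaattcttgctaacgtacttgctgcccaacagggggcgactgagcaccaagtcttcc
Cox6a1, chr5:115348959-115349208, minus strand: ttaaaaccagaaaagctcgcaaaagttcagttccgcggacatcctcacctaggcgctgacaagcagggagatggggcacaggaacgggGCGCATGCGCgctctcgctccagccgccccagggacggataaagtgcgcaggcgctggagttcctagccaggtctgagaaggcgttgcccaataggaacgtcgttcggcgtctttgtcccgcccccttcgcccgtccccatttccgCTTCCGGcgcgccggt
Atp5j, second of its starts, chr16:84834977-84835226, minus strand: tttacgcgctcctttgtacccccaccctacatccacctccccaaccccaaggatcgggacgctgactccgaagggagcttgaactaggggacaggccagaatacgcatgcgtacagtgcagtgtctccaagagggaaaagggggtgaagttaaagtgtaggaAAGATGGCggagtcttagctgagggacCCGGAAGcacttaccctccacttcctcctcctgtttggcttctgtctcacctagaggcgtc

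The printed bases of Ndufb11, Ndufa13 and Uqcrc1 held none of these letters. The gene positions given further below come from GENCODE, which places the starts of Ndufa13 and Uqcrc1 further upstream than RefSeq. By those positions the printed bases of Ndufa13 lie inside the gene, and those of Uqcrc1 run past its start. Uqcrc1 had the NRF1 letters beginning 31 and 33 bases after its start, outside the bases shown. Cox6a1 held the NRF1 letters 162 and 160 bases before its start on the opposite and the same strand, and the ETS letters 16 bases before it on the opposite strand. Atp5j held the YY1 letters 88 and the ETS letters 61 bases before its second start, whereas the bases before its first start (chr16:84835626-84835875) held none. RefSeq gave a window of 250 bases before to 50 bases after the start for 71 of the 91 members. The NRF1 letters stood in 15.5% of these and in 3.05% of windows of all 27025 genes with one. The ETS letters stood in 22.5% against 9.93%, the YY1 letters in 14.1% against 3.19%, and at least 1 of the 3 in 43.7% against 14.9%. These are counts of letters in a window, and binding was not measured here.

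Counts were scaled by TMM, which sets library sizes to a common composition, and are given as CPM, the share of a library scaled to a fixed total. Levels of different genes are compared only as CPM per kb of exon. Reads counted on genes ranged from 1626534 to 49372356 per library (median 5790701) and from 1626534 to 10567966 in male libraries. Endothelial markers summed to between 10610 and 21081 CPM in long-inbred libraries and to between 12916 and 18958 CPM in wild-derived libraries. Pericyte, astrocyte and neuron markers were also present, as given beside the results they move with. Of the 91 members, 35 have a near-identical copy elsewhere in the genome (at least 95% identity over the length of a read) and 32 overlap exons of another gene, so that reads may be shared, since the strand and multimapping settings of the counting are not given in the sources used here. All strains were aligned to the mm10 reference, which is C57BL/6J.

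Measured per kb, 8 members had a median of 0 over 43 libraries, and the highest levels were those of 1 subunit of the catalytic head of ATP synthase and of small subunits of complex IV. Atp5a1, which encodes the alpha subunit of the catalytic head of ATP synthase, had the highest median over 43 libraries at 94.3 CPM per kb, followed by Cox8a at 86.7 and Cox6a1 at 73.2 CPM per kb, both small nuclear subunits of complex IV. Atp5h, part of the peripheral stalk, stood at 63.6 CPM per kb and Atp5b, the beta subunit of the catalytic head, at 47.0. In complex III the highest was Uqcrb at 57.7 CPM per kb, ahead of Uqcr11 at 30.6 and Uqcrh, the hinge subunit, at 26.3. In complex I, accessory subunits led, with Ndufb10 at 55.3, Ndufa13 at 45.1 and Ndufb11 at 38.9 CPM per kb. By group, the median over members was 20.7 CPM per kb for complex III, 12.7 for complex I, 12.3 for complex IV, 11.96 for ATP synthase and 3.14 for the complex I assembly factors. The assembly factors were thus the lowest group, and their highest member reached 8.13 CPM per kb.

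**Figure D1:**
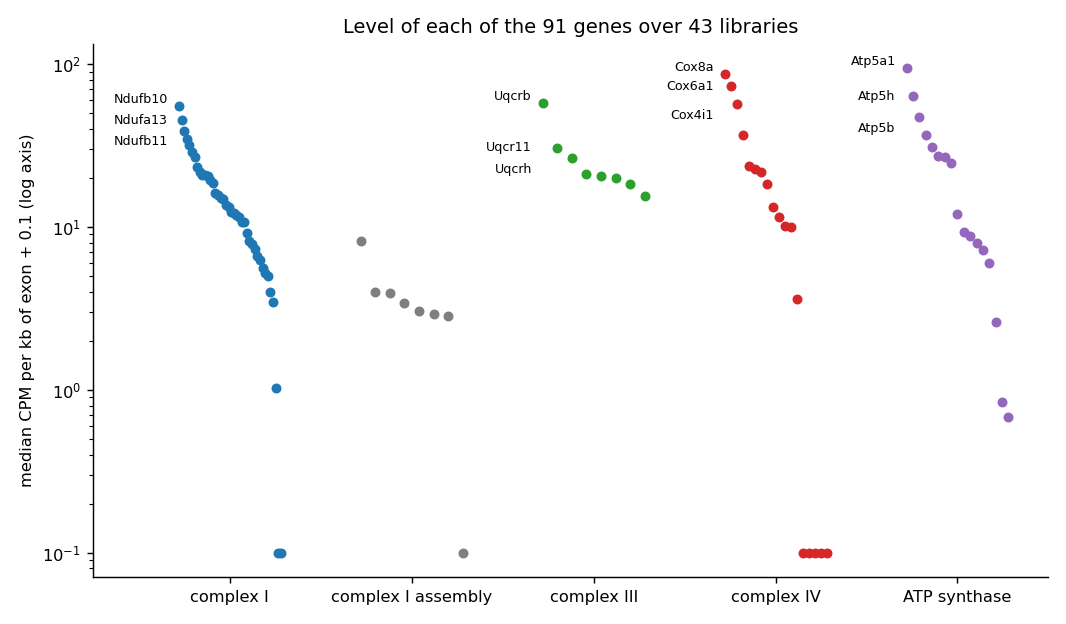
Median CPM per kb of exon over 43 libraries for each of the 91 genes, ordered within its group, on a log axis after adding 0.1, so that genes with a median of 0 sit at the bottom. The 3 highest genes are named beside each group of subunits, and Atp5a1 at 94.3 CPM per kb is the highest of all.

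Complex IV has tissue-specific forms of several subunits, and in these EC the widely expressed form was the higher one for the subunits whose symbols begin with Cox. Cox6a1 stood at a median of 73.2 CPM per kb, while Cox6a2, the heart and muscle form, collected 12 counts in 3 libraries. Cox6b1 was at 36.5 CPM per kb and Cox6b2, known from testis, had 190 counts in 6 libraries. Cox8a was at 86.7 CPM per kb and the muscle form Cox8b had 12 counts in 3 libraries. Cox7b was at 21.8 CPM per kb, and Cox7b2 had 381 counts in 2 libraries. Cox7a2 was at 11.4 and Cox7a2l, which is known to take part in supercomplexes, at 10.04 CPM per kb, whereas the muscle form Cox7a1 had 1006 counts in 10 libraries and a median of 0. Forms known to respond to low oxygen were counted in more depth. Cox4i2, an oxygen-responsive form of subunit 4 known from lung, was at 13.2 CPM per kb against 56.5 for Cox4i1, and Ndufa4l2 was at 23.2 against 10.7 for Ndufa4. The 3 genes for the c ring of ATP synthase were unequal, with Atp5g3 at 11.96, Atp5g2 at 5.95 and Atp5g1 at 0.742 CPM per kb.

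Cox4i2 and Ndufa4l2 are also known from pericytes, so their levels were set beside the mean log2 level of 10 pericyte markers. Over the 27 male libraries, Pearson's r with that mean was 0.34 for Cox4i2 and 0.46 for Ndufa4l2, and -0.38 for Cox4i1 and -0.46 for Ndufa4. Over all 43 libraries it was 0.15 for Cox4i2, 0.49 for Ndufa4l2, -0.38 for Cox4i1 and -0.46 for Ndufa4. These libraries share strains, regions and depth, and the values are a description only.

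Among the male libraries of the 7 strains, those of WSB/EiJ had the lowest and those of CAST/EiJ the highest mean level of these genes. In this order of male libraries the wild-derived strains stood at opposite ends. The mean of log2(CPM + 1) over the 91 members was 2.78 ± 0.59 (SD, n = 4) in WSB/EiJ, with libraries at 3.38 (cortex low), 2.98 (hippocampus low), 2.77 (cortex high) and 1.98 (hippocampus high). It was 4.16 ± 0.21 (SD, n = 4) in CAST/EiJ, with libraries from 3.92 to 4.35. The WSB/EiJ libraries did not overlap those of CAST/EiJ, A/J, NOD/ShiLtJ, C57BL/6J or 129S1/SvImJ, and overlapped only those of DBA/2J. In between stood DBA/2J at 3.51 ± 0.21, 129S1/SvImJ at 3.60 ± 0.20 (n = 3), C57BL/6J at 3.76 ± 0.13, A/J at 3.97 ± 0.34 and NOD/ShiLtJ at 4.09 ± 0.23 (SD, n = 4 each unless given). The ranges of all neighbours in this order overlapped, also those of WSB/EiJ and DBA/2J (1.98 to 3.38 against 3.21 to 3.67). Summed over members, male WSB/EiJ libraries held 1405 to 1874 CPM and male CAST/EiJ libraries 2827 to 3215 CPM, without overlap. In female libraries the mean over members was 3.33 and 3.66 in WSB/EiJ and 4.37 and 4.32 in CAST/EiJ. The female sums overlapped, at 2987 and 3918 CPM against 3552 and 3459 CPM. The female DBA/2J library held 7091 CPM with a mean of 5.10, so CAST/EiJ was not the highest strain in female libraries.

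**Figure D2:**
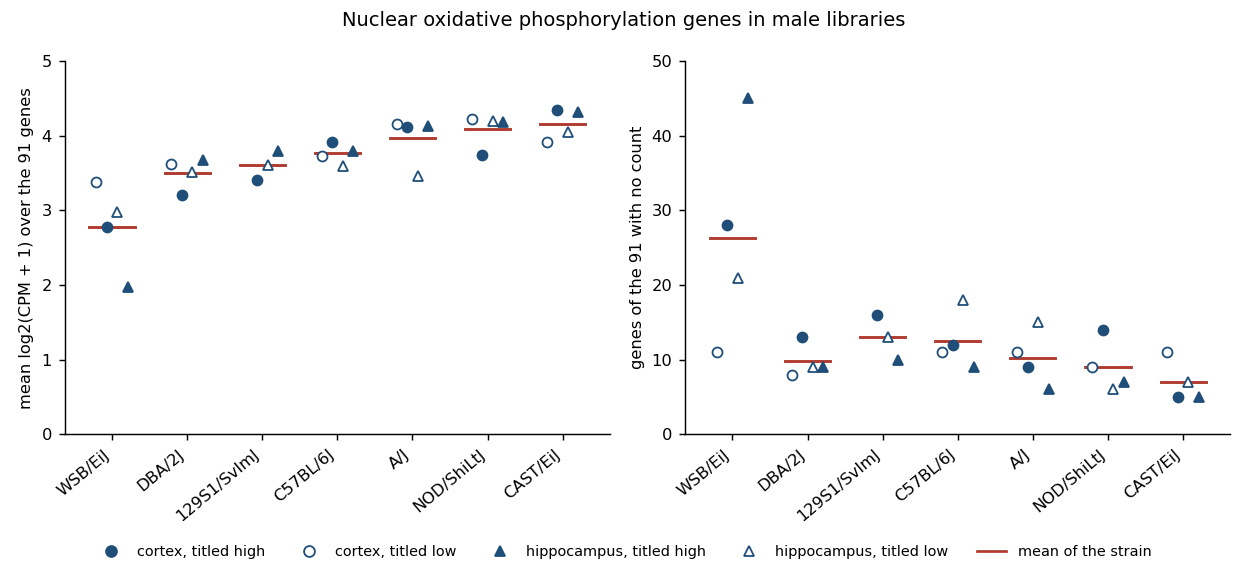
Mean log2(CPM + 1) over the 91 genes (left) and the number of them with no count (right) in each of 27 male libraries by strain, with symbols for region and title tag and a line at the mean of the strain. WSB/EiJ libraries sit between 1.98 and 3.38 and CAST/EiJ libraries between 3.92 and 4.35 on the left, and WSB/EiJ reaches 45 genes with no count on the right.

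Depth was lowest in 3 of the WSB/EiJ libraries. Their totals were 5331064, 2710356, 2327180 and 1626534 counts in the order above, the first of them deeper than the CAST/EiJ libraries titled low (4132518 and 3736712 counts), and 11, 21, 28 and 45 members had no count in them, against 5 to 18 in the other male libraries. Over the 27 male libraries the mean over members had a Pearson's r of 0.78 with the number of genes detected, 0.67 with the log2 of total counts, 0.69 with the endothelial mean (0.41 without the marker Ly6c1), -0.36 with the pericyte mean and -0.22 with the neuron mean. NOD/ShiLtJ, with the second highest mean over members, had 3125539 to 5691087 counts, and DBA/2J, with the second lowest, 3565114 to 6858266. The part of depth in the order of the strains was not tested beyond the thinned fits. Thinning gave all libraries the smallest total, and its values are given beside the tests below. It cannot bring back genes that a library had already missed. Cell type markers moved too. Pericyte markers summed to between 7675 and 9759 CPM in WSB/EiJ and between 2330 and 3108 CPM in CAST/EiJ, with none of the 10 at 0 throughout either strain. The sum of 12 endothelial markers overlapped, at 13241 to 15962 CPM in WSB/EiJ and 12916 to 17989 CPM in CAST/EiJ, although 3 of them were called lower in WSB/EiJ than in the mean of the other 6 strains by edgeR's quasi-likelihood test with Benjamini-Hochberg adjustment. Ly6c1 differed by -9.50 on the log2 scale (SE 0.38, adjusted p = 4.2e-24), Cldn5 by -0.68 (SE 0.17, adjusted p = 0.0258) and Itm2a by -0.64 (SE 0.16, adjusted p = 0.0258). Of 7 smooth muscle markers tested, 2 were called lower in WSB/EiJ. Between CAST/EiJ and WSB/EiJ, 2 endothelial markers, Ly6c1 and Itm2a, were called higher in CAST/EiJ. In bulk libraries fewer cells of a type and less RNA per cell cannot be told apart. The cause of the far larger difference of Ly6c1 was not tested.

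The test among strains in male libraries, edgeR's quasi-likelihood F test with region and tag in the model and Benjamini-Hochberg adjustment over 24452 genes, called 548 genes (2.24%). Of the 91 members, 87 could be tested, and 4 (Ndufaf6, Cox6b2, Cox7b2 and Ndufb4c) were left out for low counts or because the fit could not hold them. The called members were Cox4i1 (adjusted p = 0.0145) and Ndufb11 (adjusted p = 0.0209), 2 of 87 beside the 2.24% of all genes. Ndufa13 (0.0681), Uqcrc1 (0.0725), Cox6a1 (0.0781), Ndufb10 (0.134), Uqcrb (0.148), Atp5j (0.172), Ndufc1 (0.278), Atp5mpl (0.285), Cox7a2l (0.309) and Cox7a2 (0.317) followed by adjusted p and did not pass. An unadjusted p under 0.05 was reached by 21 of 87 members and by 7.97% of all genes tested. With WSB/EiJ left out, no member was called (adjusted p = 0.230 for Cox4i1 and 0.997 for Ndufb11), beside 1.94% of all genes. Thinned to the smallest total, 4 members were called, Cox4i1, Ndufb11, Ndufa13 and Uqcrc1, beside 2.49% of all genes. Fitted over all 43 libraries with sex, region and tag as covariates, Cox4i1 (adjusted p = 4.8e-04) and Uqcrh were called, and Ndufb11 was not (adjusted p = 0.393). The share of all genes called was 2.18% without a filter on low counts and 4.61% with edgeR's stricter filterByExpr, which called 5 members.

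Single libraries decided some of these calls. Without the WSB/EiJ cortex library titled high, neither gene passed (adjusted p = 0.0532 for Cox4i1 and 0.102 for Ndufb11). Cox4i1 also missed without the WSB/EiJ cortex library titled low (0.0512). Ndufb11 also missed without the WSB/EiJ hippocampus library titled low (0.0686) and without either A/J cortex library (0.0792 for low and 0.0561 for high). Without the 129S1/SvImJ hippocampus library titled low, its cortex library titled high, or the DBA/2J hippocampus library titled high, the count rose to 4, beside 551, 573 and 507 of all genes. With the neuron marker mean as a covariate both genes missed (adjusted p = 0.117 for Cox4i1 and 0.0878 for Ndufb11), and with the pericyte mean Cox4i1 alone passed (0.0236 against 0.0628 for Ndufb11). With the endothelial mean without Ly6c1 as a covariate they stood at 0.0750 and 0.0524.

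Cox4i1 (chr8:120668222-120674207 in mm10, plus strand, protein coding) encodes the main form of complex IV subunit 4. In WSB/EiJ it was at 39.2 CPM (cortex low), 59.8 (hippocampus low), 22.6 (cortex high) and 8.58 (hippocampus high). In CAST/EiJ it was at 117, 129, 88.2 and 78.6 CPM in the same order, and in C57BL/6J at 126, 113, 105 and 94.9. All WSB/EiJ libraries were below every CAST/EiJ and C57BL/6J library. DBA/2J ranged from 34.4 to 67.8, 129S1/SvImJ from 46.1 to 66.1, A/J from 50.2 to 99.7 and NOD/ShiLtJ from 41.5 to 138 CPM, so these strains overlapped WSB/EiJ. Its exons overlap Emc8 on the opposite strand.

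Ndufb11 (chrX:20615326-20617619, minus strand, protein coding), an accessory subunit of the membrane arm of complex I, was at 11.9 CPM (cortex low), 4.72 (hippocampus low), 4.43 (cortex high) and 0 (hippocampus high) in WSB/EiJ. The other 23 male libraries ranged from 14.5 to 92.1 CPM, the highest being the A/J cortex library titled low. The groups did not overlap, and every WSB/EiJ library was the lower. Over all 6 WSB/EiJ libraries of both sexes it reached 64.4 CPM, so the separation holds for male libraries alone. A near-identical copy exists, and its exons overlap Rbm10 on the opposite strand.

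Ndufa13 (chr8:69894180-69902558, minus strand, protein coding), a complex I subunit also known as GRIM-19, was at 18.1 CPM (cortex low), 14.2 (hippocampus low), 0.403 (cortex high, 1 count) and 0 (hippocampus high) in WSB/EiJ. CAST/EiJ libraries were at 103, 43.9, 67.3 and 56.8 CPM in that order. The 2 strains did not overlap, while 129S1/SvImJ (7.84 to 74.8 CPM) and DBA/2J (9.34 to 85.1 CPM) reached into the WSB/EiJ range. Over all 6 WSB/EiJ libraries Ndufa13 reached 76.1 CPM.

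Uqcrc1 (chr9:108936633-108949623, plus strand, protein coding), a core subunit of complex III, was at 103 CPM (cortex low), 130 (hippocampus low), 122 (cortex high) and 109 (hippocampus high) in CAST/EiJ. WSB/EiJ libraries were at 43.2, 34.6, 36.3 and 21.5 CPM in that order. Every CAST/EiJ library lay above all other male libraries except 1, the C57BL/6J cortex library titled high at 118 CPM. The lowest male library was the 129S1/SvImJ cortex library titled high at 17.3 CPM.

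**Figure D3:**
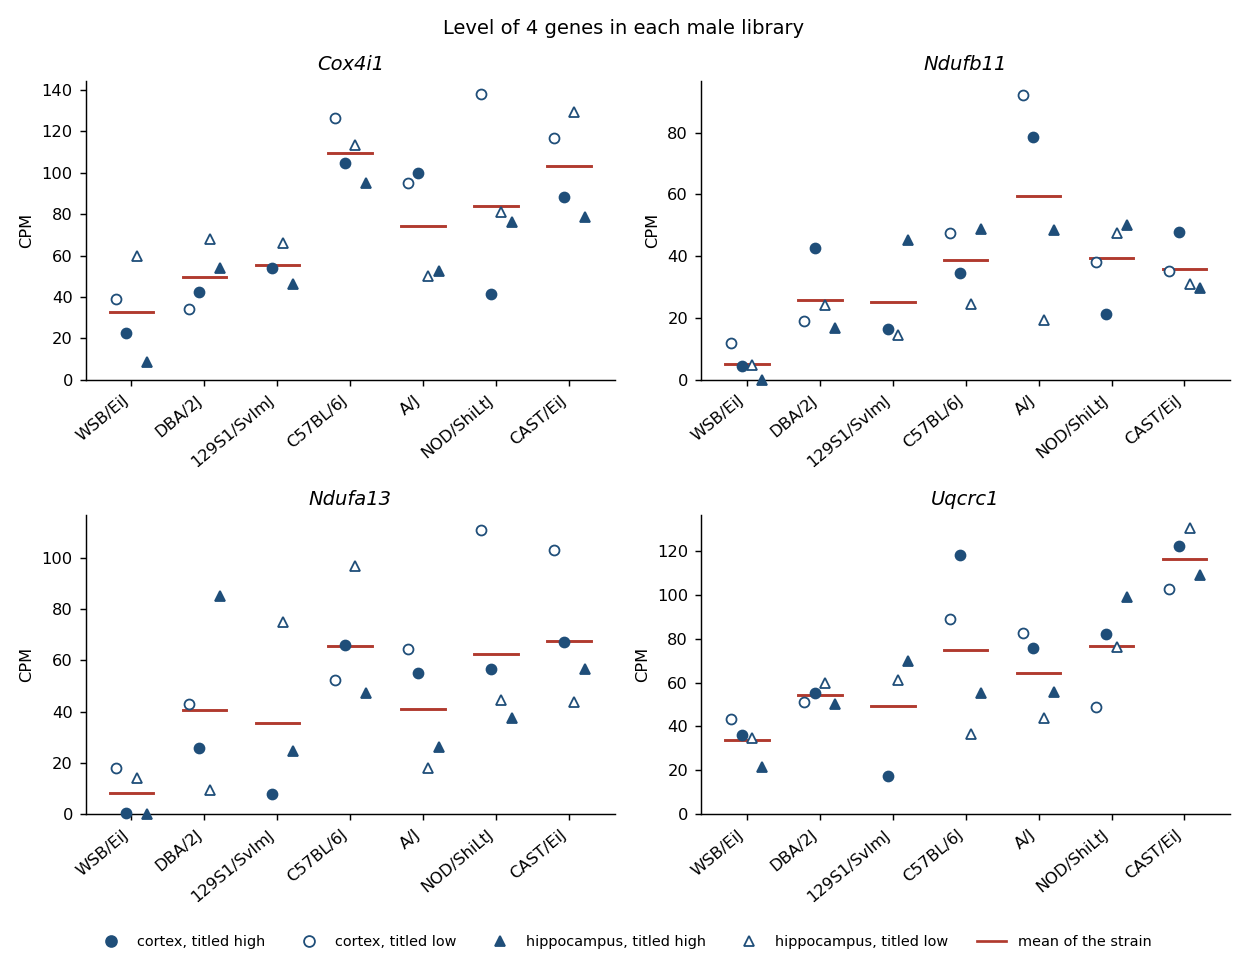
CPM of Cox4i1, Ndufb11, Ndufa13 and Uqcrc1 in each of 27 male libraries by strain, with symbols for region and title tag and a line at the mean of the strain. Ndufb11 in WSB/EiJ lies at or below 11.9 CPM, under the 14.5 CPM of the next lowest library.

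Each strain was then set against the mean of the other 6 in the same model. WSB/EiJ had 270 called genes (1.1%), and 4 of 87 members were among them, all lower in WSB/EiJ, where 0.515% of all genes were called lower. Ndufb11 fell by 2.69 on the log2 scale (SE 0.55, adjusted p = 0.00303), Ndufa13 by 2.73 (SE 0.59, adjusted p = 0.00711), Cox4i1 by 1.32 (SE 0.31, adjusted p = 0.0167) and Ndufv1, the flavin-binding subunit where NADH enters complex I, by 1.34 (SE 0.34, adjusted p = 0.0333). Ndufv1 (chr19:4007384-4012806, minus strand) was at 28.4, 12.6, 30.6 and 12.9 CPM in WSB/EiJ in the order cortex low, hippocampus low, cortex high and hippocampus high, against 22.6 to 85.8 CPM in the other male libraries, so that its 2 highest WSB/EiJ libraries overlapped them. The fold of Ndufa13 rests on libraries near 0 and depends on the prior count. Over all 87 members tested the fitted log2 difference was positive in 12, with a median of -0.79 beside -0.51 for all genes tested. With filterByExpr, the medians were -0.90 and -0.11, and Uqcrh joined the called members.

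Each WSB/EiJ library decided at least 1 of these calls. Without the cortex library titled high, Ndufb11 alone passed (adjusted p = 0.0312), and Ndufa13 (0.0697), Cox4i1 (0.112) and Ndufv1 (0.0641) did not. Without the hippocampus library titled high, again Ndufb11 alone passed (0.0214 against 0.0504, 0.152 and 0.161). Without the cortex library titled low 5 members were called, but Cox4i1 (0.0596) and Ndufv1 (0.0667) were not, and without the hippocampus library titled low Ndufv1 missed (0.153). Ndufv1 also missed without the CAST/EiJ cortex library titled high (0.0510). Thinned to the smallest total, 5 members were called lower (Ndufb11, Ndufa13, Cox4i1, Cox7a2 and Atp5mpl, the last a small ATP synthase subunit) and the median was -0.82. With the pericyte mean as a covariate none was called (adjusted p = 0.103 for Ndufb11 and 0.0600 for Ndufa13), while the median was -0.90. With the endothelial mean without Ly6c1, Ndufb11, Ndufa13 and Cox4i1 were called. Summed over the 7 strain contrasts, calls over all genes were 509 with the pericyte mean. They were 792 without the cortex library titled high and 903 without the hippocampus library titled high. The share of all genes called for WSB/EiJ alone is not given for these fits, so gains and losses of members are not set against it.

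CAST/EiJ had 270 called genes (1.1%), 0.683% of all genes being higher and 0.421% lower, and 1 of 87 members was called. Uqcrc1 was higher by 1.01 on the log2 scale (SE 0.26, edgeR quasi-likelihood test, adjusted p = 0.0344). The fitted difference was positive in 72 of 87 members, with a median of 0.46 beside -0.12 for all genes. The call of Uqcrc1 was lost without any 1 of the 4 CAST/EiJ libraries (adjusted p from 0.0779 to 0.306) and with the pericyte covariate (0.161). In the other 5 strains no member was called, beside 0.294% of all genes in A/J, 0.294% in C57BL/6J, 0.311% in DBA/2J, 0.221% in NOD/ShiLtJ and 0.18% in 129S1/SvImJ. In the direction of each strain's median, 0.229% of genes were called higher in A/J, 0.18% in C57BL/6J and 0.159% in NOD/ShiLtJ, and 0.143% lower in DBA/2J and 0.0409% in 129S1/SvImJ. In the opposite direction the shares were 0.0654%, 0.115%, 0.0613%, 0.168% and 0.139%. At an unadjusted p under 0.05 there were 9, 10, 5, 4 and 3 members in that order, beside 4.88%, 5.92%, 5.08%, 3.55% and 5.07% of all genes. The median log2 differences of members were 0.34 in A/J, 0.26 in C57BL/6J, -0.35 in DBA/2J, 0.35 in NOD/ShiLtJ and -0.01 in 129S1/SvImJ, beside medians over all genes of -0.24, -0.39, -0.26, -0.10 and -0.21. In NOD/ShiLtJ all 17 ATP synthase genes and all 8 complex III genes had a positive estimate, and in DBA/2J 16 of 17 ATP synthase genes and 14 of 16 complex IV genes had a negative one, without a call among them. Each strain's contrast uses the same libraries as the others, so they are not independent.

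**Figure D4:**
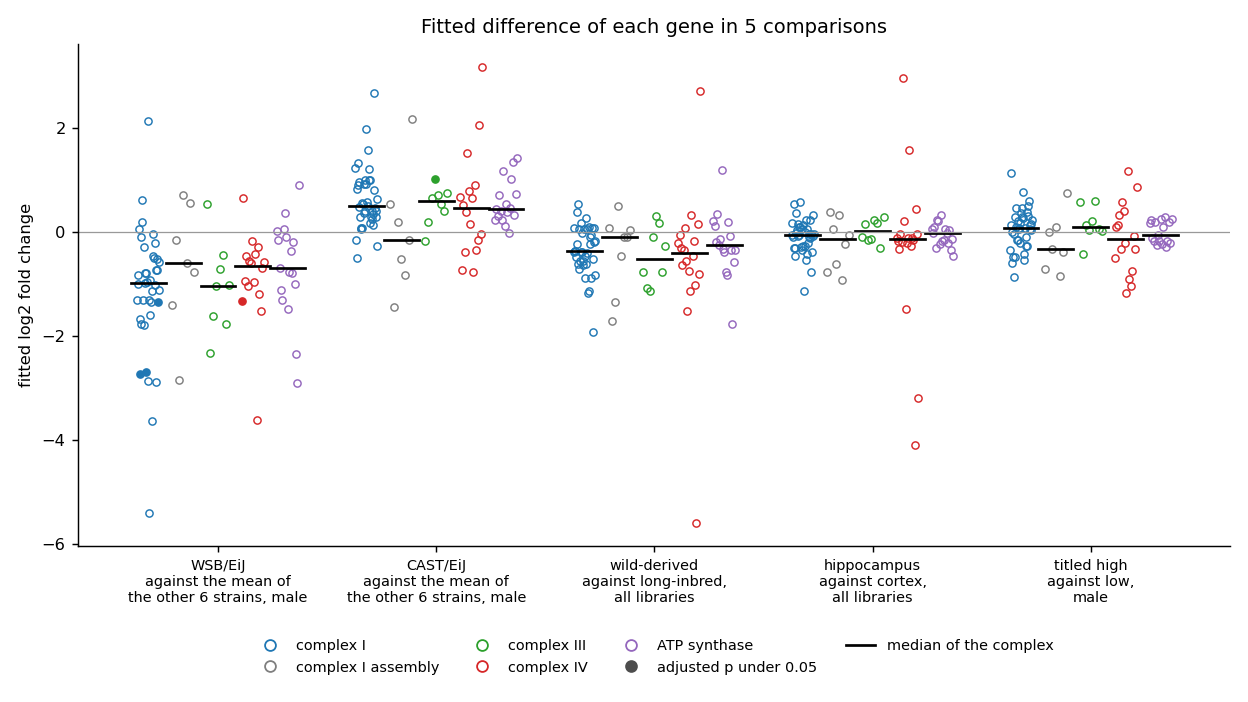
Fitted log2 fold change of each member by group, for WSB/EiJ and CAST/EiJ against the mean of the other 6 male strains and for origin, region and title tag, with filled points at an adjusted p under 0.05 and a black line at the median of each group. Filled points are 4 genes in WSB/EiJ and 1 in CAST/EiJ, with none in the comparisons of origin, region and tag.

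The contrast of CAST/EiJ with WSB/EiJ, added after the strain levels had been seen, called 281 of 24452 genes (1.15%) and 4 of 87 members, all higher in CAST/EiJ, where 0.658% of all genes were called higher and 0.491% lower. Ndufa13 differed by 3.11 on the log2 scale (SE 0.67, adjusted p = 0.00603), Cox4i1 by 1.71 (SE 0.37, adjusted p = 0.00649), Uqcrc1 by 1.75 (SE 0.38, adjusted p = 0.00692) and Ndufb11 by 2.65 (SE 0.61, adjusted p = 0.0118). The estimate was positive in 75 of 87 members, with a median of 1.21 beside 0.14 for all genes. By group the median was 1.64 for complex III, 1.30 for complex I, 1.20 for complex IV and 0.996 for ATP synthase, whose 17 genes were all positive, whereas the 7 complex I assembly factors tested had a median of -0.20 with 3 positive. The same 4 genes were called after thinning to the smallest total and with the endothelial mean without Ly6c1 as a covariate. With the pericyte mean as a covariate no member was called, beside 143 of all genes, while the median was 1.25. With the full endothelial mean none was called, beside 69 of all genes, and the median was 0.63. Without the WSB/EiJ cortex library titled low 9 members were called, beside 316 of all genes. Without its cortex library titled high 3 members were, with Ndufb11 at an adjusted p of 0.0641. Over all 43 libraries 8 of 86 members tested were called, beside 522 of all genes. Cox4i1 and Uqcrc1 were among these members, without Ndufa13 (adjusted p = 0.0581) and Ndufb11 (0.145). Of the 10 pericyte markers, 4 were called lower in CAST/EiJ, and the median of the 10 was -1.15. The part of these cells in the members' difference was not tested beyond these fits.

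The transcripts encoded in mitochondrial DNA, which make the other subunits of the same complexes, ran the other way between these strains. Their summed level was 1748 to 5171 CPM in CAST/EiJ and 10076 to 19688 CPM in WSB/EiJ, without overlap. Of 12 such genes tested, 7 were lower and 1 higher in CAST/EiJ than in WSB/EiJ (edgeR quasi-likelihood test). mt-Nd1, a complex I core subunit, differed by -2.42 (SE 0.27, adjusted p = 8.0e-08), mt-Nd6 by -3.01 (SE 0.37, adjusted p = 4.1e-07) and mt-Cytb, the cytochrome b of complex III, by -2.44 (SE 0.31, adjusted p = 7.5e-07). Over 27 male libraries the members' mean had a Pearson's r of -0.60 with the summed mitochondrial level. Both are shares of 1 library, and reads of every strain were aligned to the C57BL/6J mitochondrial genome. The effect of sequence differences on these counts was not tested.

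Of the other genes of the pathway, listed with these results known, none of the 4 complex II genes, of cytochrome c and c1, of 31 assembly factors tested whose symbols the rule does not take, of the 4 carriers and ATPase inhibitor genes, or of 12 regulators was called among strains or between CAST/EiJ and WSB/EiJ. The median log2 difference of CAST/EiJ from WSB/EiJ was 0.69 for complex II, 0.75 for the carriers and inhibitor, 0.46 for the regulators, -0.05 for the assembly factors and -0.32 for the cytochromes. These lists are short, and their medians carry no test. Across the heat map of members and male libraries, the members moved together only loosely: over 79 members counted in at least 20 male libraries, the median Pearson's r between pairs was 0.24, and it was positive in 2535 of 3081 pairs. Pairs within ATP synthase had a median of 0.29, within complex III 0.29, within complex IV 0.27 and within complex I 0.24, against 0.23 between complexes. Depth and strain are shared by all these pairs.

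**Figure D5:**
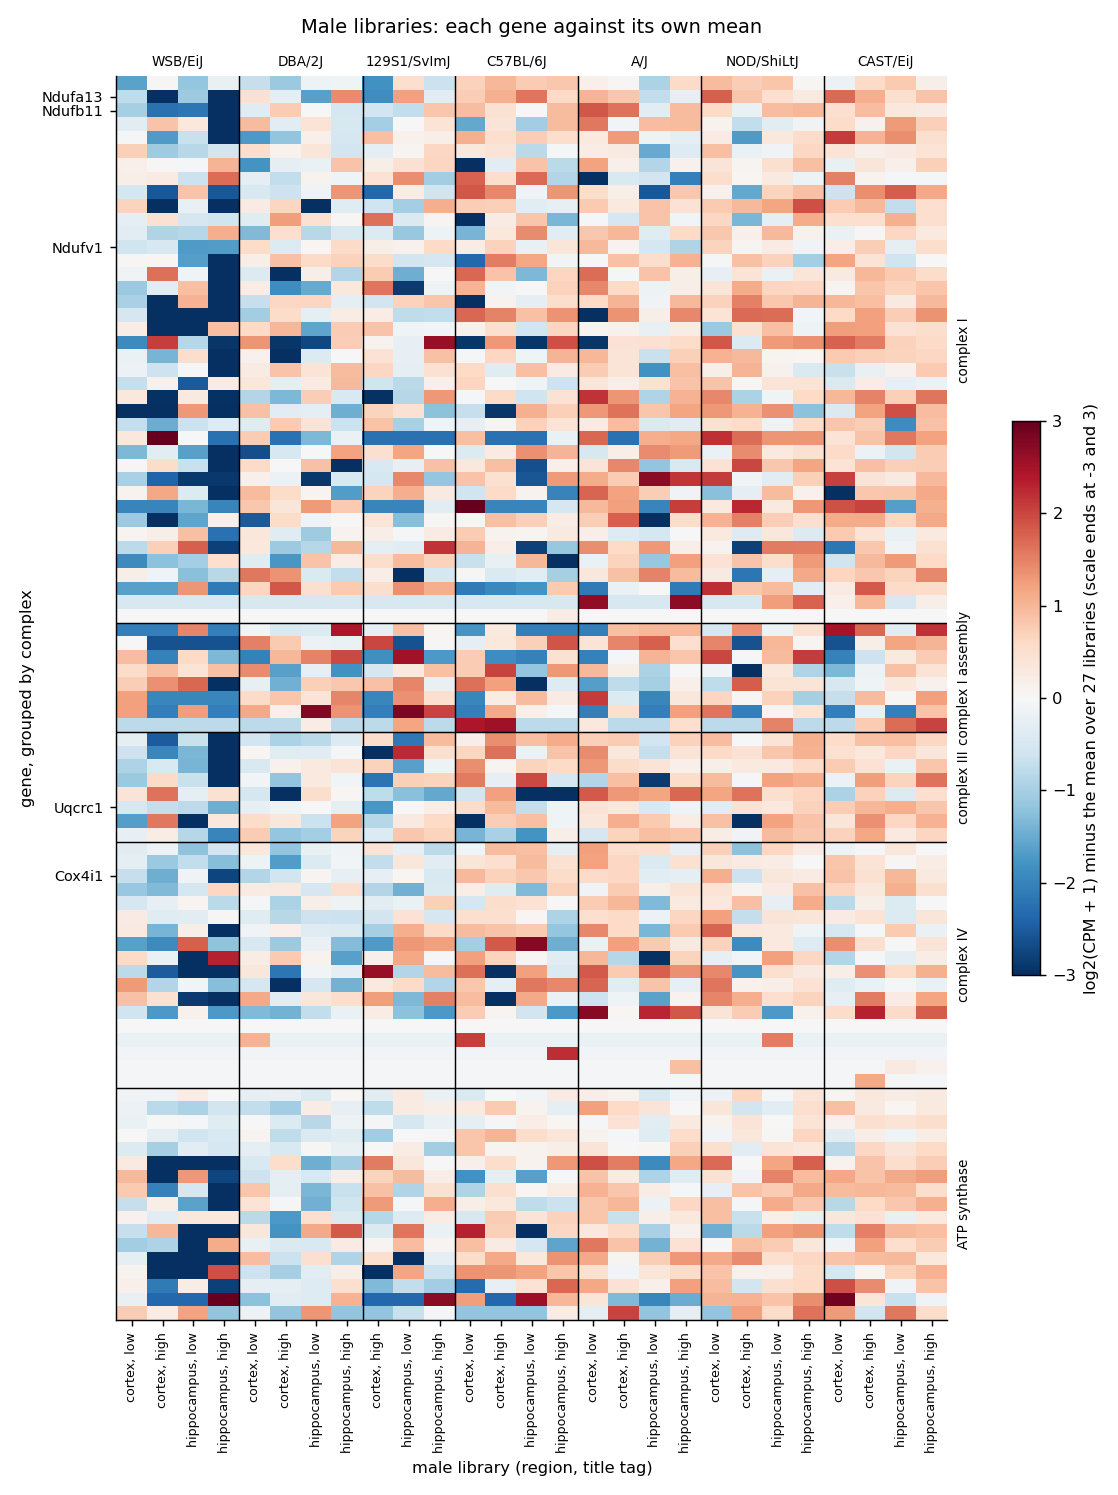
Level of each member in 27 male libraries as log2(CPM + 1) minus the gene's mean, with colours ending at -3 and 3, with genes grouped by complex, libraries by strain and the 5 genes called in the strain tests named. The mean over members was 1.98 to 3.38 in the WSB/EiJ columns and 3.92 to 4.35 in the CAST/EiJ columns.

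Between the 12 wild-derived and 31 long-inbred libraries, a comparison over all 43 libraries without covariates, 218 of 29120 genes were called (0.749%, 0.508% higher and 0.24% lower) and none of the 90 members tested. Ndufb4c, with 11 counts in all, was not tested. An unadjusted p under 0.05 was reached by 16 members and by 7.01% of all genes, and DESeq2 called 3 members beside 1.36% of all genes. The median log2 difference of members was -0.33, with 25 of 90 positive, beside -0.38 for all genes, and it was -0.34 beside -0.04 with filterByExpr, where 1.48% of genes were called. Most estimates were thus on the lower side in wild-derived libraries without passing the test. The strains behind this group differed from each other as described above, so each was also left out. Without WSB/EiJ the median of members was -0.08 (all genes -0.50) with no call. Without CAST/EiJ it was -0.75 (all genes -1.31) with 4 calls (Cox4i1, Ndufc1, Ndufs4 and Uqcrh), beside 0.895% of all genes. The median of all genes was also lower without CAST/EiJ, and it lay below that of members in each fit. These medians therefore do not show a difference between the wild-derived strains that is particular to the members.

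The smallest adjusted p on the lower side was that of Atp5mpl, which was at 3.29, 38.5 and 312 CPM (lowest, median and highest) in long-inbred libraries and at 0, 24.03 and 52.3 CPM in wild-derived libraries. The groups overlapped, and the fitted difference was -1.77 (SE 0.51, adjusted p = 0.0823). Cox8a was at 18.9, 59.8 and 131 CPM against 2.92, 39.0 and 58.8 CPM, a difference of -0.81 (SE 0.25, adjusted p = 0.139). Ndufv3, an accessory subunit of the NADH-binding module of complex I, was at 17.8, 42.9 and 130 CPM against 4.72, 27.2 and 38.0 CPM, a difference of -0.83 (SE 0.26, adjusted p = 0.159). DESeq2 called these 3 genes. On the higher side stood Atp5g1, with medians of 2.97 and 4.69 CPM and a difference of 1.19, Atp5a1 with 277 and 306 CPM and a difference of 0.21, and Ndufa4l2 with 23.4 and 29.0 CPM and a difference of 0.53. None of these passed. Among the regulators of mitochondrial genes, Pprc1, a coactivator related to PGC-1alpha, was higher in wild-derived libraries by 1.36 (SE 0.31, edgeR quasi-likelihood test, adjusted p = 0.00842), 1 of 12 tested. Libraries and not strains were the replicates of this fit, with 2 wild-derived and 5 long-inbred strains behind it. Its calls therefore cannot speak for wild-derived strains in general.

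Between hippocampus and cortex the members showed no detectable difference at this depth. Of 29120 genes 22 were called (0.0755%, 0.0206% higher and 0.0549% lower), none of them among 90 members, and 0 members had an unadjusted p under 0.05 beside 5.60% of all genes. DESeq2 called none either, nor did edgeR without a filter on low counts (0.106% of genes) or with filterByExpr (0.16%). The median log2 difference was -0.07 beside 0.03 for all genes, with 32 of 90 positive. The smallest p belonged to Ndufs1, the largest iron-sulfur subunit of complex I, at 17.0, 44.1 and 74.9 CPM (lowest, median and highest) in 21 cortex libraries and 1.95, 37.3 and 71.8 CPM in 22 hippocampus libraries. These ranges overlapped almost wholly, with a difference of -0.42 (SE 0.24, adjusted p = 0.669) whose interval of 2 SE ran from -0.90 to 0.06. Ndufb6 (-1.14) and the assembly factor Ndufaf4 (-0.61) followed on the lower side, and Ndufab1, the mitochondrial acyl carrier protein (0.56), Cox6a2 (2.94, from 12 counts in 3 libraries) and Ndufa12 (0.53) on the higher side. Atp5b was at medians of 194 CPM in cortex and 209 CPM in hippocampus, with ranges of 88.9 to 304 and 81.6 to 305 CPM.

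Between male libraries titled high and low, compared with strain and region in the model, 550 of 24452 genes were called (2.25%, 0.752% higher and 1.5% lower) and none of 87 members. DESeq2 called 1, Cox7a2l, beside 5.06% of all genes, and 2 members had an unadjusted p under 0.05 beside 8.64% of all genes. Cox7a2l was at 0.509, 14.7 and 49.8 CPM (lowest, median and highest) in 14 libraries titled high and at 12.02, 26.9 and 61.8 CPM in 13 titled low. It was lower in the library titled high in 11 of 13 pairs of the same strain and region, though the groups overlapped, and the fitted difference was -1.04 (SE 0.35, edgeR quasi-likelihood test, adjusted p = 0.139). Cox4i1 was at 8.58, 53.9 and 105 CPM against 34.4, 80.8 and 138 CPM, lower in 10 of 13 pairs, with a difference of -0.51 (SE 0.20, adjusted p = 0.277). Cox7b, another small subunit of complex IV, had a difference of -0.76 (adjusted p = 0.582). On the higher side Atp5b had a difference of 0.23 with a higher level in 10 of 13 pairs, Ndufb8 of 0.76 and Ndufa11 of 1.13, and none passed. The median of members was 0.05 beside 0.01 for all genes. No member was called without a filter on low counts (2.09% of genes) or with filterByExpr (4.51%).

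Cell type markers changed with the tag. In libraries titled high, 7 of 12 endothelial markers were higher, and 7 of 10 neuron, 4 of 8 astrocyte and 2 of 5 oligodendrocyte markers were lower by the same test. Neuron markers summed to between 327 and 1153 CPM in libraries titled high and between 665 and 1656 CPM in those titled low. With the neuron mean as a covariate the difference of Cox7a2l was -0.28 (SE 0.80, against 0.35 without it) and that of Cox4i1 -0.35 (SE 0.42, against 0.20). With the astrocyte mean they were -0.81 (SE 0.55) and -0.48 (SE 0.31), each of the 4 with an adjusted p of 1. The fit with the neuron mean called 0 of 24198 genes, so it does not single out these members. Over the 27 male libraries Cox7a2l had a Pearson's r of 0.58 with the astrocyte mean. With the full endothelial mean as a covariate the median of members was -0.50 beside -0.18 for all genes, and 2 genes of all tested were called.

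The difference between regions was also compared between wild-derived and long-inbred strains, and the difference between tags between the regions. Neither interaction called any gene (0% of 29120 and of 24585 genes), and 2 members had an unadjusted p under 0.05 in each, among them Uqcrc2 and Ndufs5 in the first. All genes tested reached that level in 2.32% and 1.34% of cases.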

How the data were processed

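RNA of sorted EC was measured in 43 libraries. Per the labels and the methods, the authors depleted rRNA, prepared stranded libraries with the SMARTer Pico kit, aligned reads to mm10 with HISAT2 2.1.0 (SAMtools 1.9) and counted them per gene with featureCounts (Subread 1.4.4). They deposited raw counts for 54532 genes without normalization. Strand and multimapping settings are not given in the sources used here.

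From these counts, a gene entered a fit if it reached 0.5 CPM in 1 library or more. Libraries were scaled by TMM and genes tested with edgeR 4.0.16 (R 4.3.3), using the quasi-likelihood test with bias-adjusted deviances and trended dispersion, two-sided, with Benjamini-Hochberg adjustment at 0.05 over all genes. That fit setting had been chosen earlier on simulated counts. Each SE is the absolute log2 difference divided by the square root of the test's F statistic, and not a separate output of the fit. It carries little meaning for genes near 0 counts. Origin and region used all 43 libraries without covariates. Strain and tag used 27 male libraries, since all but 1 female library is titled high, with region and tag, or strain and region, as covariates. A gene was dropped where the model fitted a count over 5 times any observed for it. Alternatives were DESeq2 1.42.0, other filters and scalings, thinning to the smallest total, marker means as covariates and libraries or strains left out. Programs were tested on simulated data. With 200 genes changed, 18.8% of calls were false by origin, 18.4% by region, 12.8% among strains and 2.54% by tag. A 2-fold change was called in 12%, 32%, 5% and 32% of genes given one, in that order. Among strains, the change was set in WSB/EiJ alone. Calls by origin, by region and among strains may thus hold more false ones than the threshold states, and most 2-fold changes would be missed. Changes were placed only in genes well above the 0.5 CPM filter. Counts were drawn from the trended dispersion, so the share of changes found does not cover the low members. Totals per library are in the report, and a count below 3 cannot be told from 0. That floor covers counting error only. Copies were sought with BLAST 2.17.0, and positions and exon overlaps came from GENCODE M21.

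Named genes were the 12 with the smallest p among strains, in every other comparison the 3 of lowest p on either side, all called members, the 3 highest per kb of each complex and the tissue isoforms. Genes named for another reason were chosen after their values were seen. The members and all lists were chosen with earlier results of these data known. The result of 1 member in an interaction is not reported here.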

Additional observations from a re-analysis of the deposited data

Results flagged for a closer look

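Of 60 groups of values examined (a gene or the mean over members in the 4 male libraries of a strain), 5 held a library far from the other 3, with a gap to its nearest neighbour larger than Dixon's limit for 4 values, which chance exceeds in about 5% of groups. The mean log2(CPM + 1) over the 91 members was 3.46 in the A/J hippocampus library titled low, where the median of the strain was 4.13. It was 3.74 in the NOD/ShiLtJ cortex library titled high, where the median was 4.19. Cox7a2l was at 56.3 CPM in the NOD/ShiLtJ cortex library titled low against a median of 22.2 CPM. Atp5mpl was at 18.3 CPM in the WSB/EiJ cortex library titled low against a median of 0.262 CPM. Ndufa4l2 was at 76.4 CPM in the CAST/EiJ cortex library titled low against a median of 26.7 CPM.

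Genes with -ps in their symbol were left out of the members, and 6 of them had more than 3 counts in at least 1 library. Ndufb1-ps, annotated as a long non-coding RNA at a bidirectional promoter, had 9417 counts over all libraries and passed 3 counts in 31 of them. The processed pseudogenes held fewer counts. Atp5k-ps2 had 1548, Atp5l2-ps 67, Ndufab1-ps 52, Uqcrh-ps2 9 and Atp5c1-ps 9.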

How the results depend on the processing

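Against 0 members called by origin, 1 was called without a filter on low counts (216 of all genes), without A/J (196) or without DBA/2J (179). DESeq2 called 3 (395 of all genes), and 4 were called after thinning (334) or without CAST/EiJ (250). With edgeR's default deviances, which called 23% of all genes, 7 were called. By region 3 were called with default deviances, which called 27.6% of genes, and by tag 1 with DESeq2. Against 2 members among strains, 4 were called after thinning (2.49% of all genes), 5 with filterByExpr (4.61%) or default deviances (3.23%), 14 with DESeq2 (4.68%), and 1 with pericyte markers as a covariate (1.99%). The count was 0 with neuron markers (1.75% of all genes), endothelial markers with (1.81%) or without Ly6c1 (2.18%), or without WSB/EiJ (1.94%). Leaving out 1 library gave 0 (521 of all genes) to 4 (507 to 573 of all genes). Against 4 between CAST/EiJ and WSB/EiJ, 2 were called with neuron (193 of all genes), 0 with pericyte (143) and 0 with endothelial markers as a covariate (69). Over all 43 libraries 8 were called (522 of all genes), and 3 to 9 (316 of all genes at 9) leaving out 1 library. Calls summed over the 7 strain contrasts were 5, and 0 with pericyte markers, beside 509 calls over all genes. They were 2 to 6 leaving out 1 library, the fits with 2 standing beside 792 and 903 calls over all genes. With endothelial markers as a covariate, the members' median was -0.50 by tag and 0.63 between CAST/EiJ and WSB/EiJ. The estimate of Ndufab1 by region was -0.27 in male libraries alone, and that of Ndufa11 by tag was -0.25 with astrocyte and -0.051 with endothelial markers. The cause was not tested. The comparison of CAST/EiJ with WSB/EiJ, the endothelial covariates, the pericyte, thinned and left-out fits of the strain contrasts, and the strain test without WSB/EiJ were added after seeing the data. No analysis paired by mouse was possible because the labels do not name the mouse and the groups compared share fewer than 2 replicate numbers, the titles of some 129S1/SvImJ libraries alone carrying one. The pairs counted for the tag match libraries by strain and region, and not by mouse. Depth limits the low members, since 60 of 91 had no count in at least 1 library.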
